A study of Homo sapiens with 4 samples.

Results

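Intermediate filament transcripts were measured in HEK293 cells, a human embryonic kidney line, with and without lysophosphatidic acid (LPA), a phospholipid that signals through G protein-coupled receptors. The 10 genes examined were vimentin (VIM), the neural filament genes NES, NEFL, NEFM, NEFH and INA, the simple epithelial keratins KRT8, KRT18 and KRT19, and the lamin gene LMNA. Members were every probe set that the array's annotation assigns to 1 of these symbols and to no other, which gave 22 probe sets among the 54675 on the array and all 10 genes among the 19775 with such a probe set. Both groups were the same unmodified line as far as the labels say. The 2 untreated arrays have the treatment "none" and titles with the unexplained letters Vc, and the 2 LPA arrays come from cells given 1 µM LPA for 2 h. A single protocol, attached to all 4 arrays, describes an overnight period without serum before LPA, and what the untreated cells received in place of LPA is not given. The labels do not say that replicates came from separate cultures, so p-values reflect array-to-array spread alone, which can be technical.

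Intermediate filaments are ropes of coiled-coil proteins, and which ones a cell makes is a classical marker of its lineage. Vimentin builds the cytoplasmic network of mesenchymal and many cultured cells, keratins 8 and 18 pair as the first keratins of simple epithelia, and neurofilament subunits co-assemble with alpha-internexin in axons. Nestin marks neural progenitors and needs a partner such as vimentin to form filaments, while A-type lamins line the inner face of the nuclear envelope. HEK293 cells are known as a kidney-derived line that carries neuronal as well as epithelial filament proteins.

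Each array had been scaled to a common level before deposit, with a mean of 500.1 once 2% of probe sets at either end were trimmed. LPA replicate 2 had a maximum intensity of 62508, against 93776 to 104012 on the other 3 arrays. Genes tested had a brightest probe set with a mean signal of at least 70.5, the 40th percentile over all genes, and this level is called the filter signal below. Of 10 member genes 8 passed it, as did 16 of 22 member probe sets, and NEFH and KRT19 did not. Over the whole array 11865 of 19775 genes and 21817 of 41097 single-symbol probe sets passed. The filter signal is a percentile and not a detection limit. Brightness depends on each probe set's own sequence, so signals were compared between arrays and not ranked between genes.

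Epithelial and neural filament genes both had members above the filter signal in these cells. In untreated cells KRT8, KRT18, NEFL, NEFM and INA each had a probe set above the filter signal on both arrays. KRT19, a keratin of ductal and other simple epithelia, and NEFH, the heavy neurofilament subunit, had none above it on any array. NES lay at the filter signal. Vimentin had a probe set at the bright end of the scale on all 4 arrays (place 179 of 11865 tested genes by mean signal, which is a position on the array scale and not an abundance).

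**Figure D1:**
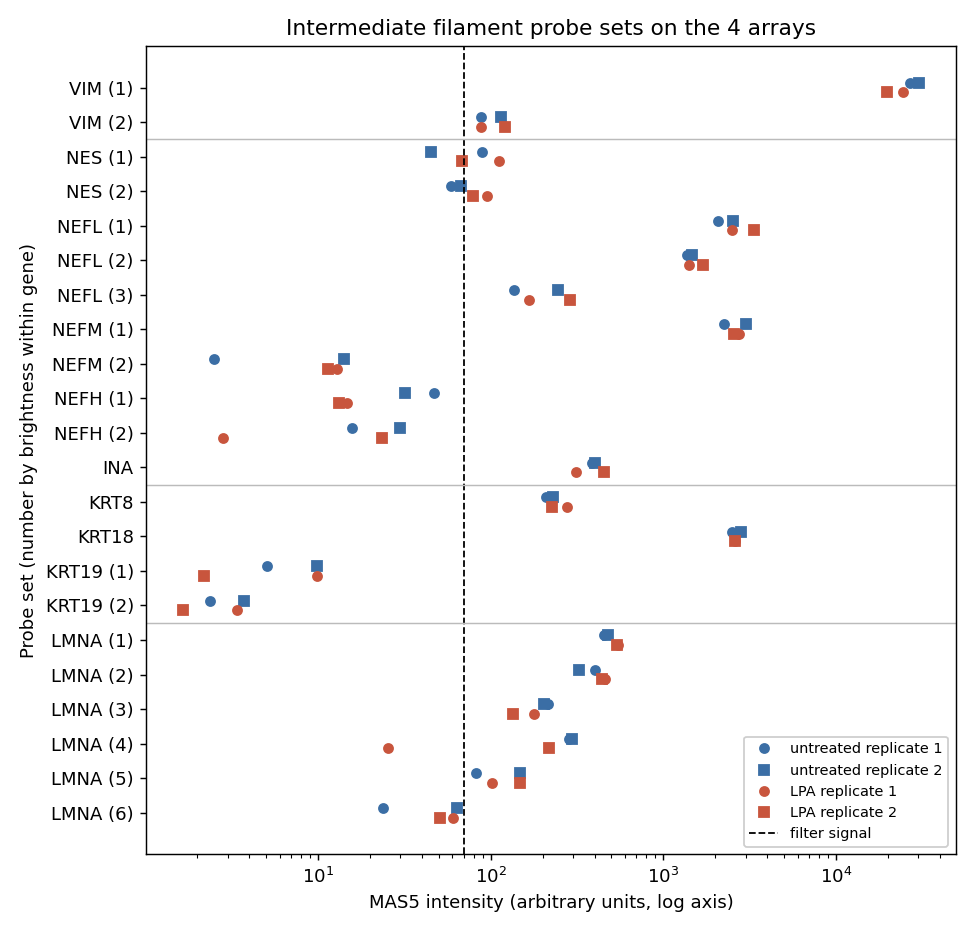
MAS5 intensity on a log axis at each of the 22 filament probe sets, with circles for replicate 1 and squares for replicate 2, untreated in blue and LPA in red, and a dashed line at the filter signal of 70.5. VIM probe set 1 lies between 19898 and 30202, while both probe sets of KRT19 and of NEFH lie left of the line on all 4 arrays.

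Vimentin, the filament protein of mesenchymal and migrating cells, read 26882 and 30202 without LPA and 24351 and 19898 with it at its brighter probe set. Both LPA values lay below both untreated values, with means of 28542 ± 2347 (SD, n = 2) and 22124 ± 3149 (SD, n = 2). The log2 difference was -0.37 ± 0.17 (SE), a ratio of 0.773 of LPA to untreated, with a 95% interval of -0.76 to 0.012. It did not pass over all genes (limma adjusted p = 0.9999, unadjusted p = 0.0562). Here and below, differences are of log2(intensity + 1), and adjusted p-values are by Benjamini-Hochberg over the whole table.

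The vimentin difference was uneven between replicate numbers, at -0.14 between the arrays numbered 1 and -0.60 between those numbered 2. Among the 300 brightest other tested genes, a set looked at after the vimentin values were seen, 285 were lower on LPA replicate 2 than on untreated replicate 2, with a median difference of -0.37. Between the arrays numbered 1, 150 of those 300 were lower. Vimentin lay below the median of those genes by -0.14 in number 1 and -0.23 in number 2. Without LPA replicate 2 the vimentin difference was -0.23, and under quantile normalization it was -0.24 ± 0.090. What share of the vimentin difference goes with the dim upper end of LPA replicate 2 was not tested. The other vimentin probe set, which read 87.6 and 115 without LPA and 88.2 and 122 with it, overlapped between groups and differed by 0.046 ± 0.50.

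**Figure D2:**
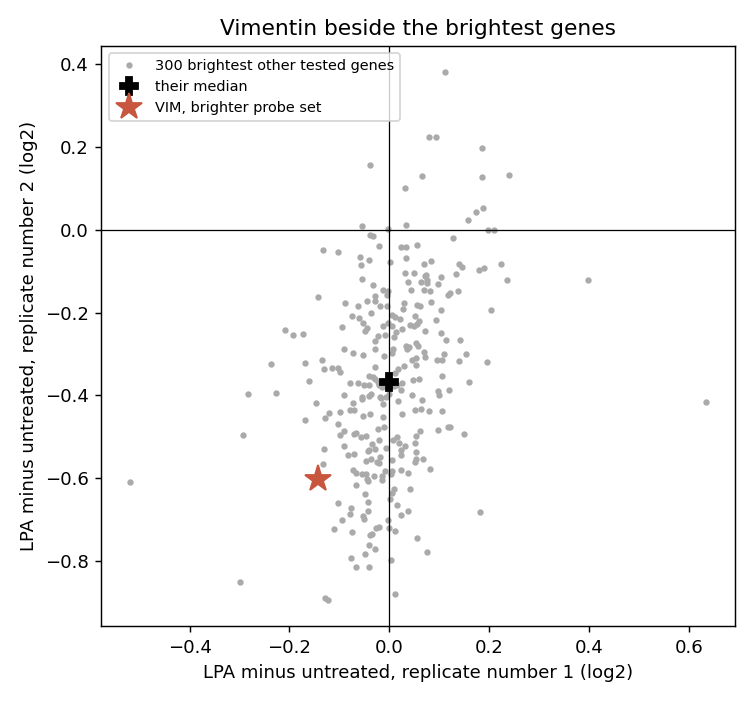
LPA minus untreated log2 difference within replicate number 1 (x axis) and number 2 (y axis) for vimentin (star) and the 300 brightest other tested genes (grey points), with their median as a cross. The cross lies at -0.37 on the y axis, and vimentin lies at -0.14 on the x axis and -0.60 on the y axis.

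The genes whose pattern over the 4 arrays lay nearest to vimentin, by Euclidean distance of mean-centred log2 values, were PEX5, COMMD4 and HCG22. PEX5, the receptor that imports peroxisomal matrix proteins, lay at a distance of 0.029, COMMD4 at 0.031 and HCG22 at 0.043, where the median over all tested genes was 0.60. PEX5 read 1770 and 2003 without LPA and 1640 and 1341 with it, the same order of arrays as vimentin. With 4 arrays such closeness is a description of these values alone.

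NEFL, the light neurofilament subunit on which the others assemble, had 3 probe sets above the filter signal, and each was higher after LPA within both replicate numbers. The brightest read 2079 and 2527 without LPA and 2490 and 3337 with it. The groups overlapped, since LPA replicate 1 lay just below untreated replicate 2. The second read 1382 and 1470 against 1410 and 1692, and the third 136 and 246 against 167 and 290.

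The log2 difference of NEFL was 0.33 ± 0.20 (SE, 95% interval -0.12 to 0.78) in the fit over genes, with limma adjusted p = 0.9999. At the other probe sets it was 0.12 ± 0.17 and 0.27 ± 0.43. NEFL was also brighter on the arrays numbered 2 than on those numbered 1, in untreated and LPA cells and at all 3 probe sets. At the brightest, untreated replicate 2 exceeded untreated replicate 1 by 0.28, close to the difference between groups. Of all single-symbol probe sets, 25.3% were higher after LPA in both replicate numbers and 26.4% were lower in both. Among the 22 member probe sets these were 9 and 5. The probe sets of 1 gene share their RNA and are not replicates of each other.

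NEFM, the medium subunit, read 2260 and 3010 without LPA and 2749 and 2579 with it. Both LPA values lay between the untreated values, and the log2 difference was 0.030 ± 0.18 (95% interval -0.39 to 0.45). The replicate numbers went opposite ways, at 0.28 and -0.22. Its other probe set stayed between 2.50 and 14.1 on all arrays, far under the filter signal. NEFL and NEFM are neighbouring genes.

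INA encodes alpha-internexin, the neurofilament partner made early in neurons. It read 388 and 402 without LPA and 313 and 451 with it, so the LPA values enclosed the untreated ones. The log2 difference was -0.071 ± 0.28 (95% interval -0.72 to 0.58).

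NES, which encodes nestin, read 89.7 and 45.2 against 112 and 68.1 at one probe set and 59.2 and 67.7 against 95.5 and 78.7 at the other. The second had no overlap between groups and the first did. Their log2 differences were alike, 0.45 ± 0.65 and 0.45 ± 0.59 in the fit over probe sets, with standard errors larger than the differences. Of the 4 arrays, 2 lay above the filter signal at each NES probe set. With a pseudocount of 64 in place of 1 the differences were 0.23 and 0.24.

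NEFH read 46.9 and 32.0 without LPA and 14.7 and 13.3 with it at its brighter probe set, without overlap. Its log2 difference was -1.41 ± 0.92, and -0.40 with a pseudocount of 64. All of these values lie below the filter signal, and no detection calls were used to tell signal from background. The other NEFH probe set read 15.9 and 29.7 against 2.83 and 23.6 and overlapped between groups.

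KRT18, the type I keratin of simple epithelia, had the smallest standard error among the 8 tested members. It read 2519 and 2836 without LPA and 2612 and 2611 with it. The log2 difference was -0.034 ± 0.16 with a 95% interval of -0.39 to 0.33, and the LPA values lay between the untreated ones. KRT8, its type II partner, read 209 and 229 against 276 and 226, with a difference of 0.19 ± 0.31 (95% interval -0.52 to 0.90). That difference came from LPA replicate 1, as LPA replicate 2 lay between the untreated arrays. KRT8 and KRT18 are neighbouring genes with many processed pseudogenes, and each is read here by 1 probe set of the kind that can bind related transcripts.

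KRT19 read 5.05 and 9.83 without LPA and 9.84 and 2.20 with it at its brighter probe set, and 2.38 and 3.73 against 3.41 and 1.66 at the other. None of these 8 values reached the filter signal. In both probe sets the replicate numbers went opposite ways, so no direction could be read.

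LMNA, which encodes lamins A and C, had 6 probe sets, and they disagreed. The brightest read 455 and 481 without LPA and 549 and 543 with it, with both LPA values higher (log2 difference 0.22 ± 0.23, limma adjusted p = 0.9999). The second also had both LPA values higher, at 402 and 324 against 461 and 439 (0.32 ± 0.24).

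Another LMNA probe set had both LPA values lower, at 216 and 205 against 179 and 135 (-0.43 ± 0.36). The fourth in mean signal read 283 and 296 in untreated cells, but 25.5 on LPA replicate 1 and 219 on LPA replicate 2. Its log2 difference of -1.93 ± 0.83 was the largest of any member probe set in size and rested mostly on the 1 dim value, since the difference was -3.42 in number 1 and -0.43 in number 2. It was the only member probe set with an unadjusted p of 0.05 or less in limma (0.0464), and its limma adjusted p was 0.9998. The other 2 overlapped between groups, with differences of 0.15 ± 0.50 and 0.50 ± 0.81. Whether the probe sets read different LMNA transcripts was not tested. The second, the fourth and the dimmest LMNA probe sets are of the kind that can bind related transcripts. So are the third NEFL probe set and the dimmer VIM one.

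**Figure D3:**
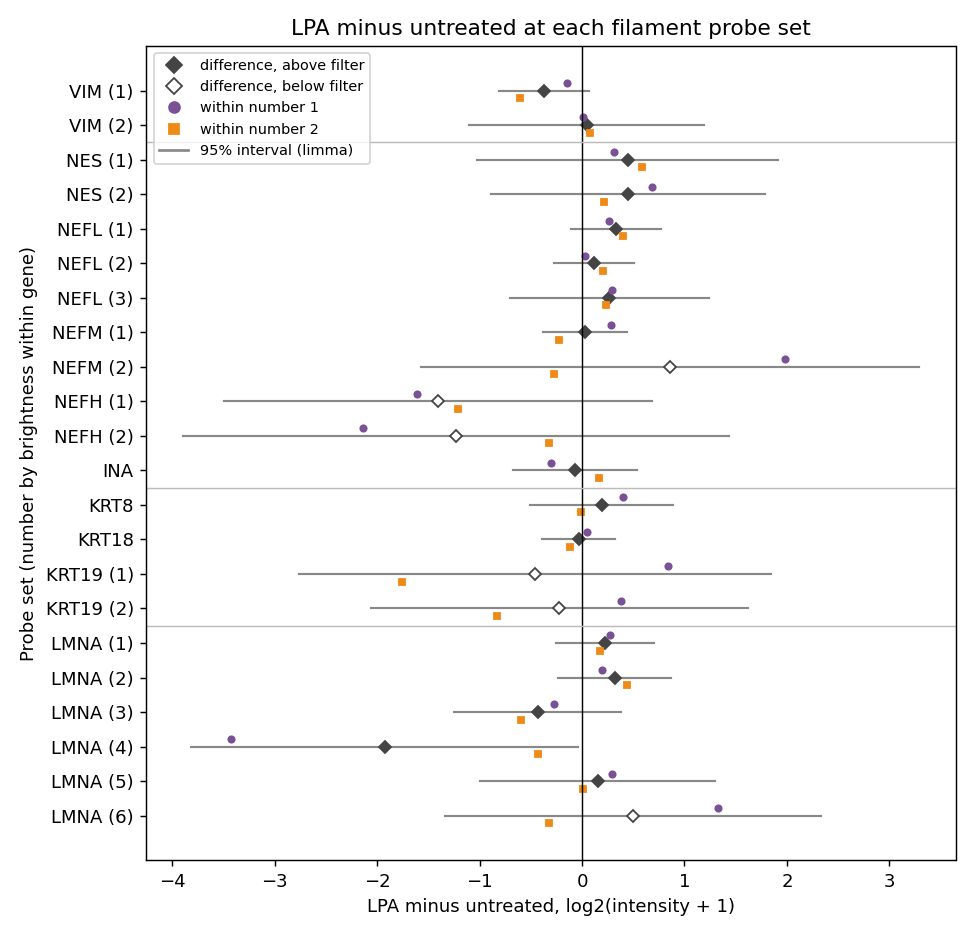
LPA minus untreated log2 difference (diamonds, open where the probe set lies below the filter signal) with limma's 95% interval from the fit over probe sets at each of the 22 filament probe sets, and the differences within replicate number 1 (circles) and number 2 (squares). The intervals of all probe sets but LMNA probe set 4 include 0, and that probe set shows -3.42 in number 1 and -0.43 in number 2.

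Neural and epithelial filament genes were then compared by their differences between arrays. Over all 5 neural genes the median log2 difference was 0.030, and over the 3 keratins -0.034, at the brightest probe set of each. The neural minus epithelial value was 0.063 over all arrays, -0.14 in replicate number 1 and 0.28 in number 2, so the sign turned with the number (SD over the numbers 0.30). Without LPA replicate 2 it was -0.26. Over the 4 neural genes and 2 keratins above the filter it was 0.10. With the mean of all probe sets of each gene the value was 0.27, and over every member probe set 0.32, so its size depended on which probe sets were used. Both values draw on probe sets below the filter signal, which went different ways. Among these were KRT19 (-0.46 and -0.22), the dim NEFM probe set (0.86) and NEFH (-1.41 and -1.23). The value at the brightest probe sets was smaller than the spread between replicate numbers, which was computed at those probe sets. No such spread was computed for the value over every probe set, so that value cannot be set against it.

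None of the 8 tested members and none of the 22 probe sets passed the adjusted threshold of 0.05 in limma without a term for the replicate number. With that number as a block, 1 of the 22 passed, the LMNA probe set with the dim value on LPA replicate 1 (limma adjusted p = 0.00607). The p-value of that fit rests mostly on a variance shared over probe sets. Across all genes tested, 0 of 11865 genes passed, which is 0% called, and 207 genes (1.74%) had an unadjusted p under 0.05. Over all single-symbol probe sets 0 of 41097 passed as well, and 1378 (3.35%) had an unadjusted p under 0.05. The tested members had a median difference of 0.11, against 0.0092 over all genes tested. Without overlap between groups, 1 member was higher (LMNA) and 1 lower (VIM) after LPA at its brightest probe set, where 14.4% of all genes were higher and 12.5% lower in this way. At the level of probe sets, 3 of 22 were higher and 4 lower without overlap, against 15% and 15.8% of all single-symbol probe sets, so the members' shares lay near the background. The gap between the 2 untreated arrays exceeded the LPA difference at 10 of 22 member probe sets (45.5%) and at 64.2% of all single-symbol probe sets. These are unlike measures: the gap is between single arrays and the LPA difference between means of 2. The gap therefore varies more even where the groups do not differ.

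Other intermediate filament genes gave a similar picture. Of 20 listed, 18 had a single-symbol probe set and 7 passed the filter, with 3 higher and 4 lower in mean and 0 without overlap. Their median difference was -0.075. The B-type lamins, which line the nucleus of nearly all cells, both passed the filter. LMNB1 read 926 and 737 against 875 and 704, and LMNB2 read 2235 and 972 against 1690 and 927 (-0.24 ± 0.40). For LMNB2 the replicate numbers differed more than the groups. Peripherin (PRPH), a filament protein of peripheral neurons, read 132 and 363 against 186 and 319 (0.16 ± 0.50). KRT10, the suprabasal keratin of skin, read 3617 and 3350 against 3579 and 3595 (0.043 ± 0.15). The lens filament gene BFSP1 (-0.25 ± 0.48) and the filament-associated genes SYNC (-0.15 ± 0.29) and SYNM (0.13 ± 0.32) also overlapped between groups. Desmin (DES), glial fibrillary acidic protein (GFAP) and KRT7 were among the 11 below the filter.

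Linkers, desmosomal proteins and plakins anchor filaments to junctions and to other cytoskeletal systems. Of 17 such genes 11 were tested, with 2 higher and 9 lower in mean, a median of -0.087 and 0 past the threshold. Over all 11865 tested genes, 6159 were higher and 5706 lower in mean, which is the background for the counts of each list. Desmocollin 3 (DSC3) had both LPA values lower, at 692 and 902 against 605 and 595 (-0.40 ± 0.23), but 2 further probe sets of the gene gave -0.086 and 0.077. Desmoplakin (DSP), which ties keratins to desmosomes, read 5663 and 3865 against 4803 and 3294 (-0.23 ± 0.24), and desmoglein 2 (DSG2) read 6530 and 3677 against 5230 and 3402 (-0.22 ± 0.29). In both the arrays numbered 2 were dimmer than those numbered 1 in each group. PKP4, a plakophilin-related catenin, differed by 0.13 ± 0.18, but 4 further probe sets gave -0.30 to -0.019. Plectin (PLEC) read 7.24 to 18.8, below the filter.

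Lamina partners and lamin processing genes had a median of 0.0087 over 18 tested, with 10 higher and 8 lower in mean and 0 past the threshold. The lamin B receptor LBR read 11573 and 12876 against 10468 and 10491 (-0.22 ± 0.15), and SYNE2, a nesprin that links the nucleus to the cytoskeleton, 1073 and 1163 against 1001 and 889 (-0.24 ± 0.19). Both had no overlap. Emerin (EMD) differed by 0.18 ± 0.19 and FNTA, a subunit of the enzyme that farnesylates prelamin A, by -0.14 ± 0.16.

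Kinases, chaperones and turnover factors that act on filaments had a median of -0.11 over 21 tested, with 6 higher, 15 lower and 0 past the threshold. PRKCE, a protein kinase C that acts on vimentin, read 732 and 452 against 434 and 256 (-0.79 ± 0.35). It was lower after LPA in both replicate numbers, at -0.75 and -0.82. DNAJB6, a chaperone that binds keratin 18, read 1592 and 1691 against 1390 and 1218 (-0.33 ± 0.18). TRIM2, a ubiquitin ligase for NEFL, read 836 and 874 against 1106 and 1081 (0.36 ± 0.19), but 3 further probe sets of the gene gave -0.94 to -0.22. BAG3, a co-chaperone, differed by 0.27 ± 0.19.

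**Figure D4:**
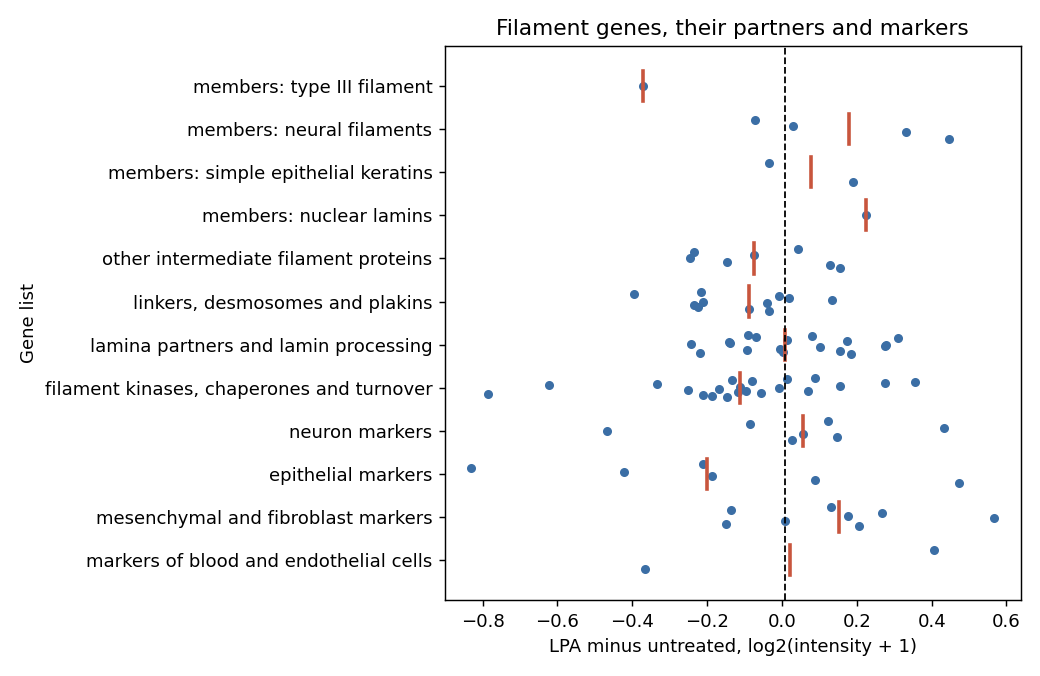
LPA minus untreated log2 difference of each tested gene (points) in the 4 filament groups, 4 lists of filament-related genes and 4 lists of cell type markers, with each list's median (red bar) and the median of all tested genes (dashed line, 0.0092). The list medians lie between -0.37 (vimentin alone) and 0.22 (LMNA alone).

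Markers of neurons, epithelia and mesenchyme each had some genes above the filter beside the filament genes. Passing it does not show that a marker is expressed, since 11865 of all 19775 genes passed by the filter's definition. Of 17 neuron markers with a probe set 7 passed the filter, among them neuronal tubulin TUBB3 (5963 and 6320 in untreated cells) and the ubiquitin hydrolase UCHL1 (7516 and 7512), while MAP2, DCX and STMN2 did not. Of 13 epithelial markers 6 passed, among them the cadherin CDH1 (266 and 250) and EPCAM (251 and 287), and the claudins CLDN3, CLDN4 and CLDN7 did not. Of 14 mesenchymal and fibroblast markers 8 passed, among them SNAI2 (3957 and 3664) and ZEB1 (2109 and 2680). PDGFRB, COL1A2, THY1, FAP, DCN and LUM did not. Of 8 markers of blood and endothelial cells 2 passed, HBB and PECAM1, with a highest value of 175 (HBB, untreated replicate 2).

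The summed signal of the neuron markers was 15252 and 16001 without LPA and 15713 and 14657 with it. That of the epithelial markers was 3792 and 3704 against 3565 and 3329, and that of the mesenchymal markers 10548 and 11031 against 11472 and 11756. Of the neuron markers SYT1, a sensor for synaptic vesicle release, had both LPA values lower (-0.47 ± 0.25) and the adhesion molecule NCAM1 both higher (0.43 ± 0.35). The epithelial sums were lower and the mesenchymal sums higher on both LPA arrays, but each separation rested on 1 bright gene. Without occludin (OCLN), whose 3 further probe sets differed by 0.12 to 1.19 against -0.19 at the brightest, the epithelial sums were 1257 and 1287 against 1203 and 1329. Without SNAI2 the mesenchymal sums were 6591 and 7367 against 6476 and 8056, so both lists then overlapped between groups. The tested genes had list medians of -0.20 over 6 genes and 0.15 over 8, and 0 members past the threshold in either. Within the epithelial list OVOL2, a repressor of mesenchymal genes, read 127 and 94.7 against 65.0 and 57.6 (-0.83 ± 0.45). Both of its LPA values lay below the filter signal. CDH1, of the same list, had both LPA values higher (299 and 428, 0.47 ± 0.30). In the mesenchymal list ZEB2, a repressor of CDH1, read 236 and 305 against 337 and 470 (0.57 ± 0.31). Fewer cells of a kind and less RNA per cell cannot be told apart in such bulk samples.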

How the data were processed

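RNA from 4 HEK293 samples, 2 untreated and 2 given LPA, was labelled and hybridised to 1 Affymetrix array each. Deposited values are linear intensities, 1 per probe set and array, which the authors computed by MAS5, per the submitters' processing notes. Its version, background settings and scaling target are not stated there, and no detection calls were used. Symbols came from the platform annotation: 41097 of 54675 probe sets had 1 symbol, 1801 several and 11777 none. Values were taken as log2(intensity + 1). Each gene was represented by its brightest probe set, and genes below the 40th percentile were left out. The groups were compared with limma 3.58.1 in R 4.3.3 (lmFit, eBayes with an intensity trend, two-sided, Benjamini-Hochberg, threshold 0.05) over 11865 genes, and a second time over all 41097 single-symbol probe sets without a filter. A gene's difference is from the first fit. Values of further probe sets, of NES and NEFH, and of LMNA probe sets after the first are from the second fit. SE is limma's moderated value and SD is over 2 arrays. Precision is limited by the number of arrays, with a median SE of 0.244. The fit was run on simulated data with a common spread for all genes and no deviation shared between arrays of the same number. That run checked the code and does not measure the accuracy of the fit on these data.

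All members are named at every probe set; of other lists up to 4 genes by smallest unadjusted p, and further genes by their role, were named. Those named for their role, and the set of 300 bright genes, were chosen after values were seen. The members and lists were chosen with earlier results of these data known. The replicate number was not in the model: the labels do not state what it marks, and with 2 pairs it was not taken as a pairing.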

Additional observations from a re-analysis of the deposited data

How the results depend on the processing

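The comparison was repeated with other normalizations, pseudocounts, filters, probe set summaries and variance models, and without each array in turn. No tested member gene passed the adjusted threshold in limma under any of them, with a lowest adjusted p of 0.304 (NEFL, replicate block). VIM stayed negative (-0.52 to -0.16) and NEFL positive (0.12 to 0.54) under all 15 alternatives. KRT8 stayed positive under its 14. Several of these alternatives could not turn a sign. The replicate block alone, the filters, the fit over every probe set and the fit without a trend leave a gene's difference unchanged. For VIM, leaving out 1 array could not turn it either, since both LPA values lay below both untreated values. Signs turned for INA without LPA replicate 1 (0.19, range over left-out arrays -0.33 to 0.19), KRT18 without untreated replicate 2 (0.052, range -0.12 to 0.052), NEFM without untreated replicate 1 (-0.18) or LPA replicate 1 (-0.016, range -0.18 to 0.24), NES without untreated replicate 2 (-0.040, range -0.040 to 0.93) and LMNA with the mean of all its probe sets (-0.19). Leaving out 1 array gave 0 to 3 genes past the threshold over the whole table (untreated replicate 1 left out gave 2, untreated replicate 2 gave 3, LPA replicate 1 gave 1 and LPA replicate 2 gave 0) and a neural minus epithelial difference of -0.26 to 0.13. That difference was 0.27 with the mean of all probe sets and 0.32 over every member probe set, against 0.063 at the brightest. Each of these values draws on probe sets below the filter signal. The replicate block gave 32 genes (0.27%) and, with quantile normalization, 4, no member among them. Over probe sets the replicate block called 1 of 22 member probe sets, the LMNA one with a dim LPA replicate 1 value (limma adjusted p = 0.00607). That fit leaves 1 residual degree of freedom, against about 630 prior degrees of freedom taken from all probe sets. Its p-value therefore rests mostly on a shared variance. It does not measure this probe set's own spread, with differences of -3.42 in number 1 and -0.43 in number 2. Quantile normalization with the block gave this probe set a difference of -1.97, against -1.93, and an adjusted p of 0.0539 in limma. The call was thus lost at a difference of like size. Arrays with the same number deviated together across genes (r = 0.33), with only 2 pairs. KRT8 and NES have no value with a filter at the 60th percentile, which removes them.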
